A study of Mus musculus with 4 samples.

Results

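Chemokine ligands and receptors were examined in islets isolated from the pancreas of C57BL/6 wild-type mice. The set was every row of the deposited expression table whose symbol is Ccl, Cxcl, Ccr, Cxcr or Ackr followed by a number, together with Cx3cl1 and Xcl1. It held 60 of the table's 24421 genes, 39 ligands and 21 receptors. Of the 60 genes, 16 had a level of at least 1 CPM (counts scaled to a common library size) in 2 or more of the 4 libraries and were tested, 12 ligands and 4 receptors. A further 29 had values under that filter, and 15 were at 0 in all 4 libraries.

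The study has 2 libraries of islets that received the treatment labelled cytoEV daily for 48 h and 2 libraries of islets labelled untreated (UT). Both groups were wild type and were kept in RPMI medium with 11 mM glucose. The labels give a treatment time for the cytoEV islets only, but the table's 2 UT columns are headed as control EV, so it cannot be told whether UT islets were given other vesicles. The title names beta cell small EVs (extracellular vesicles) of a pro-inflammatory kind, and the CXCL10/CXCR3 axis. Whether libraries of 1 group stem from different mice or culture dishes is not labelled, and each p-value therefore reflects library-to-library spread, which may be technical.

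Chemokines are small secreted proteins that guide the migration of white blood cells, and they act through G protein-coupled receptors carried mainly by those cells. Interferons and NF-kB signalling raise the inflammatory members, while homeostatic members are made without a stimulus and position cells in healthy tissue. Atypical receptors (Ackr genes) bind chemokines without G protein signalling and remove them or hold them in place. In islets, chemokines of endocrine cells are known for their part in the recruitment of T cells and macrophages in autoimmune diabetes.

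The values in the table were whole multiples of 1 step per library, which gave totals of between 129726756 and 156183968 recovered counts. Low values lay preferentially at multiples of about 2.69 recovered counts: 54.1% of values of up to 60 counts fell on that series, against 36.7% if evenly spread. Counting intervals were therefore computed after division by 2.69, as fragment equivalents (between 48225560 and 58060955 per library), and they cover counting error only. A total of 3 fragment equivalents corresponds to between 0.0517 and 0.0622 CPM. The insulin genes Ins1 and Ins2, which mark beta cells, took between 17.5% and 20.7% of the counts of a library.

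To show what lies upstream of ligands higher in cytoEV islets, the 250 bases before the transcription start are given for Cxcl10, Cxcl9 and Ccl28 (RefSeq, GRCm38.p6), while Ccl2 and Cx3cl1 are not shown. Capitals mark matches on either strand to the core of the interferon-stimulated response element (ISRE, GAAANNGAAA), to the gamma-interferon-activated site (GAS, TTCNNNGAA) or to the NF-kB consensus. The Cxcl10 promoter lies at chr5:92348890-92349139 on the minus strand, the Cxcl9 promoter at chr5:92328080-92328329 on the minus strand and the Ccl28 promoter at chr13:119623569-119623818 on the plus strand.
Cxcl10: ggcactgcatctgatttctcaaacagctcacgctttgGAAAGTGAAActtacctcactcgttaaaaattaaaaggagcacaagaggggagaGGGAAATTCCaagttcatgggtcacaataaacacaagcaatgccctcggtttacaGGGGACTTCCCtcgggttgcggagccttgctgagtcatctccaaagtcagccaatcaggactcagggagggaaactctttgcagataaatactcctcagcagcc
Cxcl9: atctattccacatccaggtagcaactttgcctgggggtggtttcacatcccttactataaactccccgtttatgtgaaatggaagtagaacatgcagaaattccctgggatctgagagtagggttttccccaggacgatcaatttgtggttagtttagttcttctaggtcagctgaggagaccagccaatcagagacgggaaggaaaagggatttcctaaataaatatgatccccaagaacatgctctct
Ccl28: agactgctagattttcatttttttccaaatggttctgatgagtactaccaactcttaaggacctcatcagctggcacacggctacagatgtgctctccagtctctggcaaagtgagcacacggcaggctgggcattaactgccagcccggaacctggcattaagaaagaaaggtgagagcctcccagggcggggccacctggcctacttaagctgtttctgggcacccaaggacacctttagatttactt

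The Cxcl10 promoter held an ISRE core that begins 213 bases before the start and 3 NF-kB matches that begin 159, 104 and 103 bases before it, the last pair overlapping by all but a base. Of 32851 promoters of this length, 2.98% held the ISRE core, 7.02% the GAS and 7.25% the NF-kB consensus. None of these motifs was found in the windows of Cxcl9, Ccl28 and Cx3cl1, which says only that these letters are not there. For Ccl2 no promoter was available. Promoters were held for 44 of the 60 genes, and 3 of these had an ISRE core, 4 a GAS and 11 an NF-kB match. The ISRE core was also present in Cxcl14 and Ccl19. NF-kB matches lay within 100 bases of the start of Cxcl1, Cxcl2 and Cxcl3, and likewise of Ackr2, Ccl9, Ccl20, Ccr1 and an annotated start of Ccr6. Of these genes, Cxcl14 had 1.44 and 1.46 CPM in cytoEV islets, against 1.27 and 1.15 CPM in UT islets, and Cxcl1, Cxcl2 and Cxcl3 were under the filter.

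In cytoEV islets 5 of the 12 tested ligands were higher and 0 lower, and 1 of the 4 tested receptors was lower and 0 higher (limma on log2(CPM + 1), Benjamini-Hochberg adjusted p under 0.05 over 12780 genes). Over all genes tested, 3.16% were higher and 3.51% lower by this rule. The ligands higher in cytoEV islets were Cxcl10, Ccl2, Cxcl9, Ccl28 and Cx3cl1, and the receptor lower was Cxcr4. Of the 16 genes tested, Cxcl10, Cxcl9, Ccl2 and Ccl3 passed the filter through the cytoEV libraries alone, so the filter itself favoured a higher level in cytoEV islets for them. Among the other 12, with a library of each group at 1 CPM or more, 2 were higher and 1 was lower. In 9 tested members the groups did not overlap with cytoEV above, and in 4 with cytoEV below, against 27.8% and 26.1% of all genes tested. edgeR on the recovered counts called 4 members higher and 1 lower, where it called 2.52% and 3.15% of all genes, and DESeq2 called 6 and 1, where it called 5.83% and 6.61%. Both used the counts without division by 2.69. edgeR was also run after that division, with the same numbers of members called, whereas DESeq2 was not. A single gene in this design of 2 against 2 cannot go below p = 0.333 in an exact two-sided permutation test, so each call rests on the spread pooled across genes. In bulk islets, fewer cells of a type and less RNA per cell cannot be told apart.

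**Figure D1:**
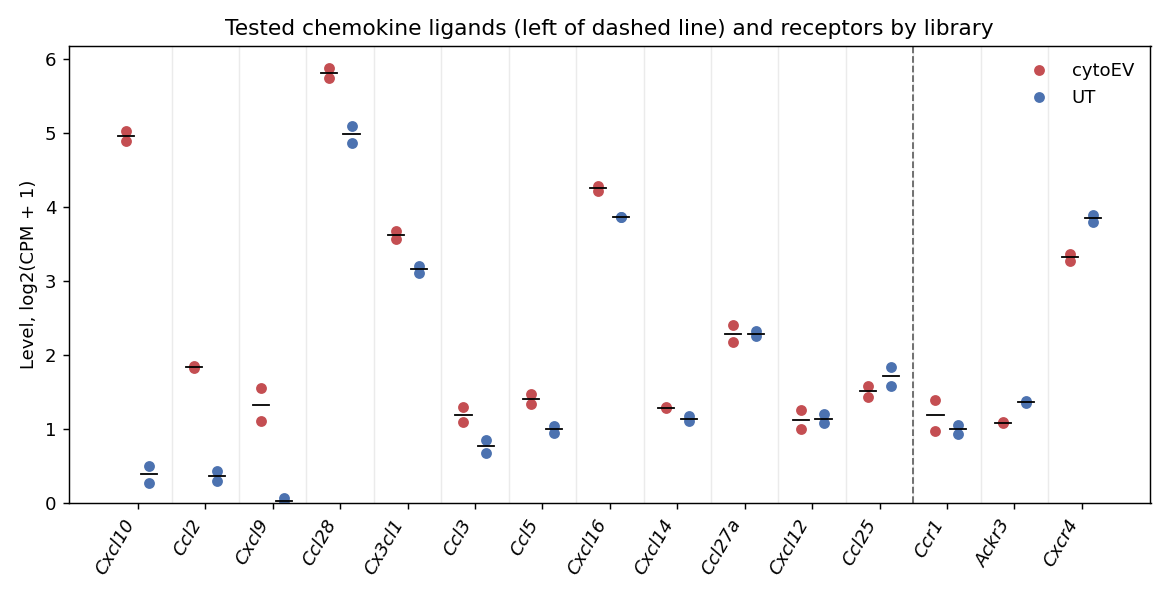
Level of tested chemokine genes on the log2(CPM + 1) scale, with a point per library (cytoEV red and left, UT blue and right) and a black line at the mean of the 2 libraries. Cxcl10, Ccl2 and Cxcl9 lie near 0 in both UT libraries and well above it in both cytoEV libraries, whereas Cxcr4 is lower in both cytoEV libraries.

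Both tested ligands of CXCR3, a receptor of activated T cells and NK cells, rose in cytoEV islets. On the log2(CPM + 1) scale Cxcl10 rose by more than any other tested member. The counting intervals of the ratios of Cxcl10 and Cxcl9 overlapped, so their order in fold change is not settled. Cxcl10, an interferon-induced ligand, had 31.8 and 28.9 CPM in cytoEV islets, against 0.416 and 0.211 CPM in UT islets. Both cytoEV libraries lay far above both UT libraries and close to each other. Cxcl10 was higher by 4.58 ± 0.13 on the log2(CPM + 1) scale (SE, limma adjusted p = 2.42e-07). In fragment equivalents summed over the 2 libraries of a group, cytoEV islets had 3095 and UT islets 32, a ratio of 101 per unit of depth with an exact 95% counting interval of 71.3 to 148. An exon stretch of 133 bases of Cxcl10 overlaps Art3 on the opposite strand, and Art3 itself was at 0.689 and 0.705 CPM in cytoEV islets and at 0.324 and 0.499 CPM in UT islets.

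Cxcl9, the ligand known for its dependence on interferon gamma, had 1.94 and 1.17 CPM in cytoEV islets, against 0.0463 and 0 CPM in UT islets. Both cytoEV libraries were above both UT libraries, but the first cytoEV library was well above the second. Its log2 change came to 1.30 ± 0.17 (SE, limma adjusted p = 0.00262), a size set by the pseudocount, and edgeR gave 6.13, which depends on its prior count. In fragment equivalents, cytoEV islets had 158 in all and UT islets 2, a ratio of 82.4 with a counting interval of 22.4 to 686. Cxcl11, annotated as a polymorphic pseudogene, stayed under the filter with 0.370 and 0.301 CPM in cytoEV islets, against 0.0848 and 0 CPM in UT islets. Its counting ratio was 8.87, with an interval of 3.16 to 34.4, but 41.7% of its exon bases overlap Gm2673 on the opposite strand, so its reads could not be told apart from that gene's without strand. The 3 genes lie side by side on chromosome 5 between 92321347 and 92365485 (GRCm38), and their summed level was 34.2 and 30.3 CPM in cytoEV islets and 0.547 and 0.211 CPM in UT islets.

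Of the ligands of CCR2, the receptor of inflammatory monocytes, Ccl2 rose. It had 2.56 and 2.62 CPM in cytoEV islets, against 0.231 and 0.359 CPM in UT islets, and its cytoEV libraries lay close together. Its log2 change came to 1.47 ± 0.13 (SE, limma adjusted p = 0.000301), and the ratio of mean CPM was 8.77. Its neighbour Ccl7, another CCR2 ligand, stayed under the filter with 0.587 and 0.713 CPM in cytoEV islets and 0.139 and 0.295 CPM in UT islets. The counting ratio of Ccl7 was 2.87, with an interval of 1.77 to 4.79. Ccl12, the mouse CCR2 ligand of the same cluster, had 0.138 and 0.0661 CPM in cytoEV islets and 0 and 0.0192 CPM in UT islets, with too few counts for more than a wide interval (1.48 to 453). The cluster on chromosome 11 between 82035571 and 82305690 also holds Ccl11, Ccl8 and Ccl1. Ccl11, the eosinophil attractant eotaxin, had 0.138 and 0.0441 CPM in cytoEV islets and 0.131 and 0.359 CPM in UT islets, and Ccl1 was at 0. Ccl8, an attractant of monocytes and eosinophils in mice, had 0.181 and 0 CPM in cytoEV islets and 0.0463 and 0.173 CPM in UT islets, so its groups overlapped as those of Ccl11 did.

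Of the 5 ligands of the other chromosome 11 cluster, known as attractants of macrophages and T cells, 2 were tested and did not pass. The others, Ccl4, Ccl6 and Ccl9, were under the filter. Ccl5, a T cell and macrophage attractant, had 1.54 and 1.78 CPM in cytoEV islets, against 0.933 and 1.07 CPM in UT islets (log2 change 0.41 ± 0.13 SE, limma adjusted p = 0.101). Ccl3, made by activated macrophages, had 1.14 and 1.46 CPM in cytoEV islets, against 0.601 and 0.813 CPM in UT islets (log2 change 0.43 ± 0.14 SE, limma adjusted p = 0.112). A fit without 1 UT library assumes that the lone UT library varies like the cytoEV pair. Over the omissions of 1 library the log2 change of Ccl3 lay between 0.33 and 0.53. Ccl4, the neighbour of Ccl3, had 0.631 and 0.779 CPM in cytoEV islets and 0.370 and 0.416 CPM in UT islets. In these 3 genes each cytoEV library was above each UT library. Ccl6 went the other way, with 0.609 and 0.448 CPM in cytoEV islets and 0.763 and 1.09 CPM in UT islets, and the groups of Ccl9 overlapped. All 5 lie on chromosome 11 between 83525778 and 83664683, and their sum was 4.67 and 5.58 CPM in cytoEV islets and 3.39 and 4.24 CPM in UT islets.

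The CXCR2 ligands, which attract neutrophils, were low in every library. Cxcl2 had 0.594 and 0.433 CPM in cytoEV islets and 0.794 and 1.04 CPM in UT islets, with a counting ratio of 0.548 (interval 0.384 to 0.774). Cxcl1 had 0.217 and 0.162 CPM in cytoEV islets and 0 and 0.134 CPM in UT islets, and Cxcl5 had 0.254 and 0.162 CPM in cytoEV islets and 0 and 0.0896 CPM in UT islets. Cxcl3 had 0.210 and 0.0441 CPM in cytoEV islets and 0 and 0.0384 CPM in UT islets, and Cxcl15 was at 0. Cxcl2 thus lay lower in both cytoEV libraries. Its 3 detected neighbours had higher CPM there, but Cxcl3 had 6 recovered counts in cytoEV replicate 2 and in UT replicate 2 alike. For Cxcl1 the same libraries had 22 and 21 recovered counts. All of these genes were under the filter and none was called. The sum of the 5 was 1.28 and 0.801 CPM in cytoEV islets and 0.794 and 1.31 CPM in UT islets, so the groups overlapped.

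Among ligands known from epithelia, 3 of 5 were tested, and of these Ccl28 rose and no other passed. Ccl28, a mucosal ligand of CCR10 and CCR3, had 58.2 and 52.8 CPM in cytoEV islets, against 28.1 and 33.4 CPM in UT islets. Both cytoEV libraries lay above both UT libraries (log2 change 0.83 ± 0.11 SE, limma adjusted p = 0.00352), at a ratio of mean CPM of 1.80. The gene spans bases 119623819 to 119654359 of chromosome 13, plus strand. Without scaling for gene length, Ccl28 alone made up 41.4% and 40.0% of the summed CPM of all 39 ligands in cytoEV islets and 43.7% and 47.3% in UT islets, while Cxcl10 made up 22.6% and 21.9% in cytoEV islets and 0.647% and 0.299% in UT islets. Ccl27a, the skin ligand of CCR10, had 3.52 and 4.31 CPM in cytoEV islets and 4.02 and 3.79 CPM in UT islets (limma adjusted p = 0.996). Its value is uncertain because 45.0% of its 50-base stretches occur in other genes, among them Gm20878, Gm13306 and Ccl27b. The near-copy Ccl27b had 0.130 and 0.0881 CPM in cytoEV islets and 0.0925 and 0.0640 CPM in UT islets, and Ccl20, the ligand of CCR6, had a value in the first cytoEV library only, 0.0435 CPM. Ccl25, the thymus and gut ligand of CCR9, had 1.99 and 1.72 CPM in cytoEV islets and 2.01 and 2.59 CPM in UT islets (limma adjusted p = 0.427).

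The 2 ligands that are made as membrane-anchored proteins were both higher in each cytoEV library than in each UT library, and 1 of them passed narrowly. Cx3cl1 (fractalkine), the ligand of CX3CR1 on macrophages, had 10.9 and 11.9 CPM in cytoEV islets, against 8.24 and 7.66 CPM in UT islets (log2 change 0.47 ± 0.11 SE, limma adjusted p = 0.0468). That call was lost in edgeR (0.0676), after TMM rescaling (0.0593), with quantile normalization (0.0647), with no filter (0.130), with a filter of 5 CPM (0.0553), and without cytoEV replicate 1 (0.253) or 2 (0.467). Cxcl16, the ligand of CXCR6 and a scavenger receptor, had 18.6 and 17.7 CPM in cytoEV islets, against 13.6 and 13.6 CPM in UT islets (log2 change 0.39 ± 0.10 SE, limma adjusted p = 0.0613). DESeq2 called Cxcl16 (adjusted p = 0.0158), whereas edgeR (0.0589) and limma with the replicate block (0.144) did not. The log2 change of Cxcl16 lay between 0.36 and 0.43 over the omissions of 1 library. Of the exon bases of Cxcl16, 18.3% overlap Zmynd15 on the opposite strand, which was at 1.75 and 1.84 CPM in cytoEV islets and at 2.04 and 1.26 CPM in UT islets.

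Homeostatic ligands were low, and the 2 of 8 that were tested did not pass. Cxcl12, the ligand of CXCR4 and ACKR3, had 1.39 and 0.999 CPM in cytoEV islets and 1.31 and 1.11 CPM in UT islets (limma adjusted p = 0.962). Cxcl14, a ligand made in epithelia, did not pass either (log2 change 0.15 ± 0.13 SE, limma adjusted p = 0.524). Cxcl13, the B cell attractant, was under the filter with 0.674 and 0.757 CPM in cytoEV islets, against 0.378 and 0.391 CPM in UT islets, a counting ratio of 1.86 with an interval of 1.25 to 2.79. Ccl19, a ligand of CCR7, had 0.0217 and 0.0955 CPM in cytoEV islets and 0 in UT islets, and 52.0% of its 50-base stretches are shared with other genes.

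**Figure D2:**
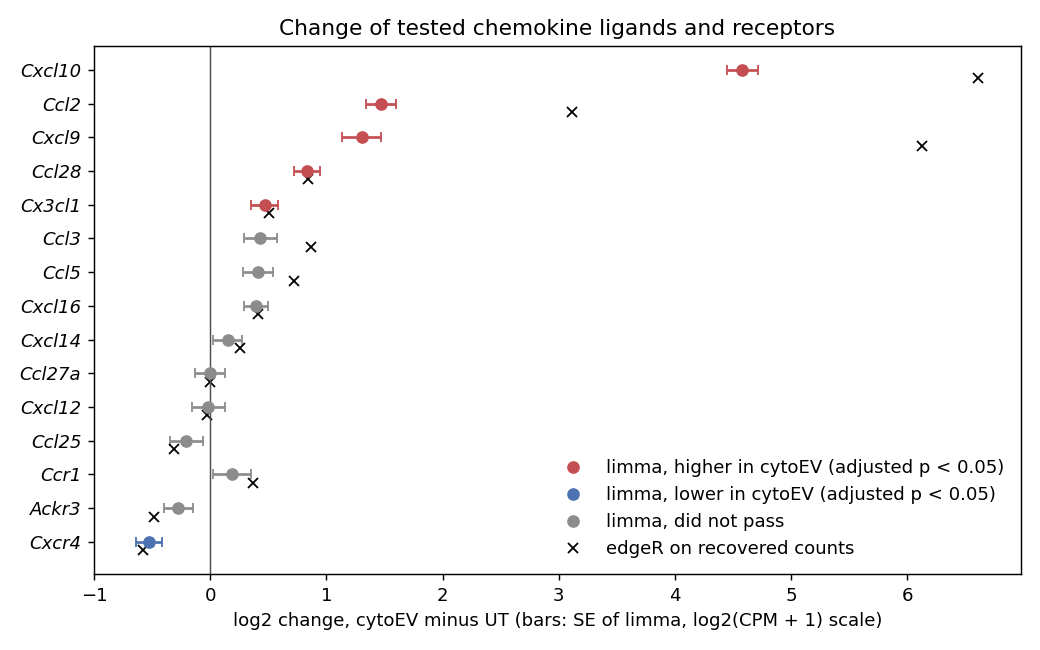
Log2 change of tested chemokine genes, cytoEV minus UT, on the log2(CPM + 1) scale with limma's SE (circles) and from edgeR on the recovered counts (crosses), ligands above receptors. Cxcl10 at 4.58 and Cxcr4 at −0.53 are the ends of the range in limma, and the edgeR values are much larger for Cxcl9, Cxcl10 and Ccl2, which were low in UT islets.

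All 21 receptors together had summed levels of 15.2 and 15.2 CPM in cytoEV islets and 20.3 and 21.6 CPM in UT islets. Cxcr4, the receptor of CXCL12, fell to 8.67 and 9.37 CPM in cytoEV islets, against 13.0 and 13.9 CPM in UT islets. The groups did not overlap, with −0.53 ± 0.11 (SE, limma adjusted p = 0.0278) as the log2 change. This call was lost with no filter (0.101 in limma, 0.0509 in edgeR) and without cytoEV replicate 1 (0.362) or 2 (0.144), while the log2 change lay between −0.58 and −0.40 under all alternatives tried. Ackr3, the atypical receptor that scavenges CXCL12, had 1.14 and 1.12 CPM in cytoEV islets, against 1.60 and 1.55 CPM in UT islets. Its groups did not overlap either, but it did not pass (log2 change −0.27 ± 0.12 SE, limma adjusted p = 0.230). Cxcr4 and Ackr3 are known from endothelial cells among others, and endothelial markers summed to 43.1 and 45.2 CPM in cytoEV islets and to 55.0 and 52.7 CPM in UT islets, with 2 of 8 lower and a median log2 change of −0.20. Over all genes tested, 3.51% were lower and 3.16% higher. Stellate and fibroblast, ductal, acinar and Schwann lists also had members lower. Macrophage, beta cell and B cell lists had a member higher and none lower. The part of endothelial or other cells in the result was not tested.

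Ccr1, a myeloid receptor of inflammatory ligands, did not pass in either direction. It had 1.63 and 0.970 CPM in cytoEV islets and 0.910 and 1.09 CPM in UT islets (limma adjusted p = 0.536). Ccr2, the receptor of CCL2, was under the filter and had 0.275 and 0.242 CPM in cytoEV islets and 0.355 and 0.122 CPM in UT islets. Ccr1 lay just inside the filter and the ligand Ccl9 just outside it, with 0.754 and 1.10 CPM in cytoEV islets and 0.725 and 0.858 CPM in UT islets.

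Cxcr3, the receptor named in the series title, had 0.0652 and 0.0441 CPM in cytoEV islets and 0 and 0.0704 CPM in UT islets. These levels are close to that of 3 fragment equivalents, the groups overlapped, and the counting ratio of 1.56 had an interval of 0.371 to 7.54, so no difference was detectable at this depth. The 10 receptors grouped as those of lymphocytes (Cxcr3, Cxcr5, Cxcr6, Ccr3, Ccr4, Ccr6, Ccr7, Ccr8, Ccr9 and Ccr10) summed to 0.0870 and 0.257 CPM in cytoEV islets and to 0.131 and 0.275 CPM in UT islets. Ccr3 is better known from eosinophils. The scavenger Ackr2, which degrades inflammatory CC chemokines, had 0.0797 and 0.140 CPM in cytoEV islets and 0.308 and 0.230 CPM in UT islets, a counting ratio of 0.410 with an interval of 0.184 to 0.849. Ackr1, the chemokine-binding Duffy antigen of red cells and venules, had 0 and 0.0661 CPM in cytoEV islets and 0.146 and 0.0640 CPM in UT islets. Of the receptors with fewer reads, Cxcr6 had 0.0217 and 0 CPM in cytoEV islets and 0 and 0.109 CPM in UT islets, and Ccr10, the receptor of CCL28, had 0 and 0.103 CPM in cytoEV islets and 0.0231 and 0.0192 CPM in UT islets. Ccr9 had 0 in both cytoEV libraries and 0.0848 and 0 CPM in UT islets, and Ccr3, Ccr4, Ccr7, Cxcr5 and Ccr1l1 stayed under 10 recovered counts in every library. None of these receptors separated the groups except Ackr2.

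The 29 members with values under the filter were left out of the test. In 10 of them the groups did not overlap with cytoEV above and in 3 with cytoEV below, against 15% and 19.1% of all 4940 genes under the filter with a value. The 10 were Cxcl13, Ccl4, Ccl19, Cxcl1, Ccl22, Ccl12, Cxcl11, Cxcl3, Cxcl5 and Ccl7, and the 3 were Ccl6, Ackr2 and Cxcl2. Cxcl3 had equal recovered counts in cytoEV replicate 2 and UT replicate 2, so library depth alone set the order of that pair. With no filter, limma called 0 of the 29, where it called 0.841% of all genes higher and 1.01% lower, and edgeR called 0 of the 29, where it called 1.43% and 1.73%. At an unadjusted p under 0.05, limma had 6 of the 29 higher in cytoEV islets and 3 lower, against 6.42% and 7.69% of the 4940 genes under the filter. By the same rule edgeR had 4 higher and 2 lower, against 2.96% and 4.76%.

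**Figure D3:**
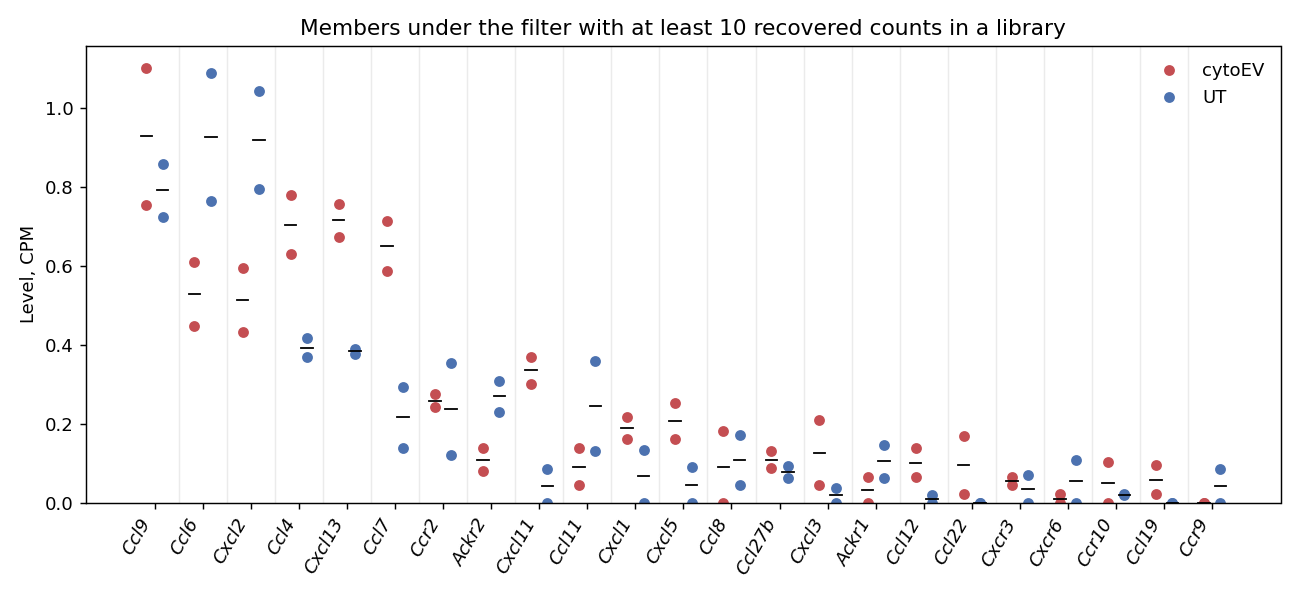
Level in CPM of the members under the filter that reached at least 10 recovered counts in a library, with a point per library (cytoEV red and left, UT blue and right) and a black line at the mean. The cytoEV points lie above the UT points for Ccl4, Cxcl13, Ccl7 and Cxcl11, and below them for Ccl6, Cxcl2 and Ackr2.

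The 15 members at 0 in all libraries were Ccl1, Ccl17, Ccl21a, Ccl21b, Ccl21c, Ccl24, Ccl26, Cxcl15, Cxcl17, Xcl1, Ackr4, Ccr6, Ccr8, Cxcr1 and Cxcr2. A count of 0 allows a level of up to 0.0517 to 0.0622 CPM in these libraries. The Ccl21 genes are near-identical copies (71.6% of the 50-base stretches of Ccl21a and 100% of those of Ccl21b occur in other genes), so reads from them could have been assigned elsewhere. CXCR1 and CXCR2 are the receptors of neutrophil attractants, and the neutrophil markers S100a8, S100a9 and Mpo were at 0 as well.

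Levels of different genes were compared as mean CPM per kilobase of annotated exon (GENCODE M21), which counts exons of all annotated transcripts. In cytoEV islets the order began with Cxcl10 at 13.5 ± 0.93 CPM per kb, Ccl28 at 11.5 ± 0.79, Cxcl16 at 6.01 ± 0.22, Cxcr4 at 4.99 ± 0.27, Cx3cl1 at 2.90 ± 0.17 and Ccl2 at 2.27 ± 0.035 (SD, n = 2). In UT islets it began with Cxcr4 at 7.43 ± 0.34, Ccl28 at 6.36 ± 0.77, Cxcl16 at 4.50 ± 0.016 and Cx3cl1 at 2.02 ± 0.10 CPM per kb (SD, n = 2), and Cxcl10 stood at place 15 of 16 with 0.139 ± 0.064. Neighbours in each of these 2 leading orders did not overlap between libraries. Further down, Ccl5, Ccl3 and Ccl27a overlapped in cytoEV islets, between 1.65 and 1.73 CPM per kb, and Ccl5 overlapped Ccl3 in UT islets.

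**Figure D4:**
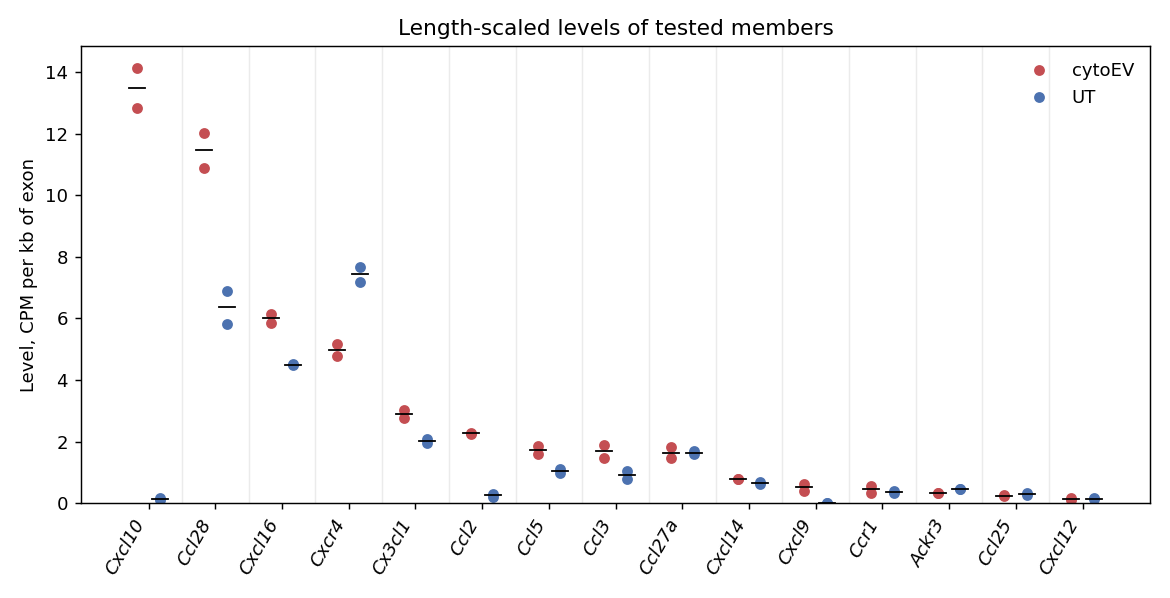
Level of tested chemokine genes in CPM per kb of exon, ordered by the mean in cytoEV islets, with a point per library (cytoEV red and left, UT blue and right) and a black line at the mean. Cxcl10 and Ccl28 are the highest in cytoEV islets at 13.5 and 11.5 CPM per kb, while Cxcr4 is the highest in UT islets at 7.43.

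By position, the members called were spread over several clusters. The cluster of Cxcl9, Cxcl10 and Cxcl11 had 2 of 2 tested members higher, and that of Ccl2 had 1 of 1, against 3.16% of all genes tested. However, Cxcl9, Cxcl10 and Ccl2 passed the filter through the cytoEV libraries alone, which favoured a higher level there, so these cluster counts show no more than the single genes do. Cx3cl1 lies on chromosome 8 between Ccl22 and Ccl17, 2 ligands of CCR4. Ccl22 had 0.0217 and 0.169 CPM in cytoEV islets and 0 in UT islets, and Ccl17 was at 0, so of these 3 neighbours Cx3cl1 alone passed the filter.

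Other genes of the chemokine system were counted from 3 lists, beside 3.16% higher and 3.51% lower over all genes tested. Among 10 genes of the system that the symbol rule leaves out, 7 were tested, 1 was higher and 1 lower, with a median log2 change of 0.04 beside 0.01 over all genes tested. Cx3cr1, the receptor of CX3CL1 carried by macrophages, had 10.2 and 10.2 CPM in cytoEV islets, against 5.26 and 6.04 CPM in UT islets (log2 change 0.75 ± 0.12 SE, limma adjusted p = 0.00714). Mif, a cytokine that can bind CXCR2 and CXCR4, had 14.8 and 16.6 CPM in cytoEV islets, against 49.3 and 31.9 CPM in UT islets (log2 change −1.29 ± 0.18 SE, limma adjusted p = 0.00444). Mif has processed pseudogene copies, so its value is uncertain. Dpp4, a protease that trims CXCL10, had 127 and 114 CPM in cytoEV islets, against 82.0 and 98.7 CPM in UT islets, and did not pass (limma adjusted p = 0.0603). DESeq2 called Dpp4 (adjusted p = 0.00417) and edgeR did not (0.0680). Its log2 change lay between 0.29 and 0.55 over the omissions of 1 library.

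Of 27 tested genes of chemokine receptor signalling, 1 was higher and 1 lower, with a median log2 change of −0.04. These counts lie near the shares over all genes tested, 3.16% higher and 3.51% lower. Arrb1, which encodes an arrestin that uncouples activated receptors, fell to 8.86 and 8.55 CPM in cytoEV islets, against 14.8 and 14.9 CPM in UT islets (log2 change −0.71 ± 0.11 SE, limma adjusted p = 0.00594). Gng10, a G protein gamma subunit, had 13.4 and 13.3 CPM in cytoEV islets, against 8.96 and 8.98 CPM in UT islets (log2 change 0.53 ± 0.11 SE, limma adjusted p = 0.0233). The Gng10 call was lost without cytoEV replicate 1 (0.265) or 2 (0.206). Of 14 tested proteoglycan cores and heparan sulfate enzymes, which hold chemokines at cell surfaces, 0 were higher and 1 was lower, with a median of −0.02. Gpc1, a glypican, had 9.50 and 11.5 CPM in cytoEV islets, against 20.1 and 15.8 CPM in UT islets (log2 change −0.71 ± 0.15 SE, limma adjusted p = 0.0241), a call lost without cytoEV replicate 1 (0.147). With no filter on low values, all 5 calls in these 3 lists were lost in limma (adjusted p between 0.0515 for Arrb1 and 0.126 for Gpc1), whereas edgeR with no filter kept those of Cx3cr1 (0.0227), Mif (0.0267), Gng10 (0.0470) and Arrb1 (0.0167) and lost that of Gpc1 (0.0726).

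The cell types that could carry these transcripts were followed by marker lists, and their part in the chemokine results was not tested. For comparison with the counts of these lists, 3.16% of all genes tested were higher and 3.51% lower. All 13 macrophage markers were tested, 1 was higher (Cx3cr1) and 0 lower, with a median log2 change of 0.23. The groups did not overlap in 8 with cytoEV above and in 2 with cytoEV below, against 27.8% and 26.1% of all genes tested. Their summed level was 440.2 and 449 CPM in cytoEV islets and 412 and 428 CPM in UT islets. Lyz2, at the highest level of the list, went the other way, with 142 and 142 CPM in cytoEV islets and 156 and 175 CPM in UT islets. Of the T cell markers 2 were tested (Il7r and Lck) and 0 called, and Cd3d, Cd3e and Cd3g were at 0 in all libraries. The sum of the list was 3.95 and 3.84 CPM in cytoEV islets and 4.99 and 5.88 CPM in UT islets. Most of it was Il7r, with 2.88 and 2.60 CPM in cytoEV islets and 3.67 and 4.48 CPM in UT islets. The NK cell markers Ncr1, Klre1 and Gzma were at 0, and the list summed to 0.0797 and 0 CPM in cytoEV islets and 0.0231 and 0 CPM in UT islets. Dendritic cell markers summed to 16.2 and 15.2 CPM in cytoEV islets and 12.2 and 12.5 CPM in UT islets, nearly all of it Itgax, which was not called. Neutrophil markers summed to 0.290 and 0.588 CPM in cytoEV islets and 0.809 and 0.813 CPM in UT islets, all of it Csf3r. Of the B cell markers Cd79a was higher (limma adjusted p = 0.0164, and 0.0725 without cytoEV replicate 2), whereas Ms4a1, Cd79b and Cr2 were at 0. Stellate and fibroblast markers had 3 of 8 lower, ductal markers 2 of 4, acinar markers 3 of 5 and Schwann markers 1 of 4, and none of these lists had a member higher. Of 8 beta cell markers 1 was higher, and of 5 alpha and 4 delta cell markers 0 were called.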

How the data were processed

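Poly(A) RNA of isolated mouse islets was sequenced from stranded libraries, per the labels' protocols. The authors deposited 1 table of CPM (counts scaled to a common library total) per gene symbol, with 4 columns. Tools listed in the submitters' processing notes, without roles, are edgeR 3.1.1 and R 3.6.1, StringTie 2.1.3, and TopHat2 2.0.6, with mm10 as genome build. Use of strand in counting: not given in the sources used here.

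From the deposited CPM, log2(CPM + 1) was tested with limma 3.58.1 (trend, Benjamini-Hochberg adjustment over 12780 genes with at least 1 CPM in 2 or more libraries). Fold changes on this scale understate those of low genes. All values (100% within 0.01) were whole multiples of a step per library, and edgeR 4.0.16 and DESeq2 1.42.0 were run on these recovered counts as alternatives. Members over the filter are named, apart from a gene that is not reported here, those under it where a library had at least 10 recovered counts, and of each list up to 4 genes with the smallest p. Gene lengths, overlaps and shared 50-base stretches came from GENCODE M21 (GRCm38), with 59 of 60 members matched. Counting ratios have exact binomial intervals at 95%. Alternatives changed the pseudocount, filter, scaling, tool, pairing and libraries used. Members and lists were chosen with earlier results of these data known.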

Additional observations from a re-analysis of the deposited data

How the results depend on the processing

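Cxcl10, Cxcl9, Ccl2 and Ccl28 kept their direction and their call under every alternative that gave them a value, with Ccl28 at an adjusted p of at most 0.0486. The log2 change of Cxcl10 lay between 2.73 and 6.63, mostly with the pseudocount. Over single genes, 359 recomputed values kept direction and side of the threshold, 26 lost the call, 12 gained it and 6 turned direction.

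The number of chemokine members higher was 5, against 8 with the crossed pairing (chosen after seeing the data), 2 with a filter of 5 CPM, which leaves no value for members below it, and 4 to 7 when leaving out 1 library. The number lower was 1, against 0 with no filter in limma and in edgeR and 0 to 1 when leaving out 1 library. Same-numbered libraries deviated in opposite directions (correlation −0.22), so replicate numbers were not taken as pairs. With the replicate block, 4 members were higher and 1 lower, and the call lost was that of Cx3cl1 (adjusted p = 0.0557).

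For the chemokine system genes outside the symbol rule, the number higher was 1, against 2 with the crossed pairing, quantile normalization and DESeq2, 0 with no filter, and 1 to 2 when leaving out 1 library. The number lower was 1, against 0 with no filter. For this list and for receptor signalling, 0 with no filter is limma's count, and edgeR with no filter gave 1 each way. For receptor signalling, the number higher was 1, against 2 with the replicate block, a pseudocount of 5 or no trend, 3 with the crossed pairing and DESeq2, 0 with no filter and 0 to 3 when leaving out 1 library. The number lower was 1, against 0 with no filter and 1 to 4 when leaving out 1 library. For proteoglycans, the number higher was 0, against 1 with the crossed pairing and DESeq2 and 0 to 1 when leaving out 1 library. The number lower was 1, against 2 with the replicate block, a pseudocount of 5 or no trend, 4 with the crossed pairing, 3 with DESeq2, 0 with no filter in limma and in edgeR, and 0 to 5 when leaving out 1 library.

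Values that turned direction were all near 0: Ccl27a was at 0.000355 with a pseudocount of 5, at 0.0331 without UT replicate 1 and between −0.12 and 0.115 over the omissions of 1 library. Cxcl12 was at 0.0486 without UT replicate 1 and between −0.14 and 0.114 over the omissions, and Ccr1 between −0.0199, without cytoEV replicate 1, and 0.40. The causes were not tested, apart from fits with fewer samples or more genes tested. With 2 libraries a group, no member under the filter passed an adjusted test in limma or edgeR, although the counting interval of several excluded a ratio of 1.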
